A study of Mus musculus with 8 samples.

Results

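Mouse embryonic stem cells labelled as knockouts (KO) of Dgcr8 were compared with wild-type (WT) cells of the same line, gene by gene, across the whole polyadenylated transcriptome. The comparison used 4 of the 8 libraries of the series, chosen by their labels alone: 2 of Dgcr8 KO and 2 of WT. All cells were E14 embryonic stem cells, taken from the blastocyst, of the 129/Ola strain background, and every culture had been in 2i medium for at least 2 weeks. That medium is serum-free N2B27 with LIF, the GSK3 inhibitor CHIR99021 and the MEK inhibitor PD0325901, and it holds the cells in the naive state. Dgcr8 KO cells were labelled with no other allele, and WT cells with none. The labels do not give the allele, the number of clones, or whether replicates were grown apart, so p-values measure only the spread between these samples, which may be technical. The other 4 libraries, of Drosha KO and of Ago1 and Ago2 double KO cells (Ago1_2 KO), served to estimate that spread.

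DGCR8 is the RNA-binding partner of the nuclease DROSHA. Together they form the Microprocessor, which cuts hairpins out of primary miRNA transcripts in the nucleus. DICER then trims each hairpin to a mature miRNA, and Argonaute proteins carry it to mRNAs that match its seed, the bases 2 to 8 from its 5′ end. Mouse embryonic stem cells are known for making most of their miRNAs from the miR-290 cluster and from the miR-17-92 cluster and its relatives, many of which share closely similar seeds. Without DGCR8 the primary transcripts are not cut, and canonical mature miRNAs are not made.

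Mature miRNAs of the clusters described below are shown first, from RefSeq (GRCm38.p6), 5′ to 3′ with the seed in capitals, because the site analysis further on turns on these seeds. The miR-290 cluster lies on chromosome 7 (miR-291a-3p at chr7:3218968-3218989, plus strand) and the miR-17-92 cluster on chromosome 14 (miR-17-5p at chr14:115043684-115043706, plus strand). The Mir24-1 copy of miR-24-3p lies at chr13:63301251-63301272 (plus strand), and miR-1306-3p, inside the Dgcr8 gene itself, at chr16:18284248-18284268 (minus strand).
miR-291a-3p: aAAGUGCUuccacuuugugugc
miR-294-3p: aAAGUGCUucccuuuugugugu
miR-295-3p: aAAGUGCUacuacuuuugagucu
miR-17-5p: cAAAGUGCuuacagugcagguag
miR-20a-5p: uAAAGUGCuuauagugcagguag
miR-19b-3p: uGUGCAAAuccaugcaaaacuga
miR-92a-3p: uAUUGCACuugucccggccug
miR-24-3p: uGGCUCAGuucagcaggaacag
miR-1306-3p: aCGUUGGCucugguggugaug
The miR-290 cluster members printed share 1 seed, miR-17-5p and miR-20a-5p share another, and both seeds hold the letters AAGUGC.

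Counts per library totalled 18361044 and 15575868 in Dgcr8 KO, and 17783035 and 22299884 in WT. Levels below are in CPM, the count scaled to the size of its library, and are not divided by gene length. The WT libraries stood further apart than the Dgcr8 KO libraries. Across genes, the median absolute log2 difference was 0.184 between the Dgcr8 KO libraries and 0.449 between the WT libraries. The naive embryonic stem cell markers summed to 7314 and 6862 CPM in Dgcr8 KO and to 8064 and 9680 CPM in WT, and all 12 of these markers were detected. Of 12 markers of fibroblast feeder cells, Fn1 alone was abundant (1815 and 1449 CPM in Dgcr8 KO, 3093 and 1401 CPM in WT), 9 were under 1 CPM in all 4 libraries, and Postn was at 0. Mesoderm markers summed to 53.7 and 66.2 CPM in Dgcr8 KO and to 14.4 and 34.4 CPM in WT, most of it from T, which was not called. Kdr was the 1 of 6 called, with 3.64 and 2.35 CPM in Dgcr8 KO against 0.73 and 0.44 CPM in WT (edgeR adjusted p 0.0337). Trophectoderm markers summed to 51.7 and 55.5 CPM in Dgcr8 KO and to 115 and 101 CPM in WT. Tfap2c gave the most (29.5 and 27.8 CPM in Dgcr8 KO, 60.7 and 39.1 CPM in WT). Krt7 and Krt18 were the 2 called, both lower. Cdx2 went the other way (2.64 and 2.60 CPM in Dgcr8 KO, 0.056 and 0.73 CPM in WT). Neural markers summed to 19.7 and 21.2 CPM in Dgcr8 KO and to 37.5 and 39.9 CPM in WT. Nes gave the most (8.97 and 10.5 CPM in Dgcr8 KO, 20.4 and 23.5 CPM in WT), and Nes and Sox1 were the 2 called, both lower. Tubb3 and Pax6, the latter under 1 CPM in all 4 libraries, were higher in Dgcr8 KO. Primitive endoderm markers summed to 5.86 and 5.78 CPM in Dgcr8 KO and to 4.57 and 4.79 CPM in WT. Whether other cell types have a part in the results below was not tested. Fewer cells of a type and less RNA per cell cannot be told apart in such bulk samples.

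Of 47643 genes in the table, 16388 passed the filter on low counts, and 1136 of these (6.93%) were called at an adjusted p under 0.05 by edgeR's quasi-likelihood test. In the fit with all libraries 401 rose (2.45%) and 735 fell (4.48%), but this balance depended on single libraries: 25 rose and 15 fell without Dgcr8 KO 1, 36 and 24 without Dgcr8 KO 2, and 2105 and 2140 without WT 1. All 1136 had both Dgcr8 KO libraries on 1 side of both WT libraries, as did 10132 of the genes tested. Individual libraries weighed heavily on these counts. Leaving out any Dgcr8 KO or WT library leaves a lone sample in its group, assumed to vary like the other groups. Such fits called far more genes without WT 1, and fewer without WT 2, Dgcr8 KO 1 or Dgcr8 KO 2. The libraries that only estimate the spread mattered too, with 2032 and 2007 calls without Drosha KO 1 or 2, and 465 and 462 without Ago1_2 KO 1 or 2. With an added correction for transcript GC content, described below, 720 genes were called (4.39%), 282 higher (1.72%) and 438 lower (2.67%). Of these, 211 higher and 354 lower genes were called in the same direction in both fits, and 0 in opposite directions.

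Dgcr8 mRNA itself was higher in the libraries labelled Dgcr8 KO. Dgcr8 (ENSMUSG00000022718, GRCm38 chromosome 16, 18253948 to 18289246) stood at 392 and 370 CPM in Dgcr8 KO and at 78.1 and 70.5 CPM in WT, a 5.13-fold difference (log2 2.36 ± 0.20 SE, edgeR adjusted p 0.00101). Dgcr8 mRNA is itself a known substrate of the Microprocessor, which cuts hairpins near its 5′ end. A count over the whole gene does not show which exon a knockout allele lacks, so this rise does not check the label. Reads on Mir1306 (ENSMUSG00000080452, chromosome 16, 18284239 to 18284317), a hairpin inside Dgcr8, numbered 0 and 0 in Dgcr8 KO against 36 and 14 in WT. Setting the Dgcr8 KO sum to 3 counts, the floor used here, that is at least 15.1-fold lower (adjusted p 0.0134). Drosha did not pass the test, with 254 and 282 CPM in Dgcr8 KO against 278 and 266 CPM in WT (log2 -0.02 ± 0.23, adjusted p 0.962).

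Reads on some miRNA genes and host transcripts rose in Dgcr8 KO. In a polyadenylated library such reads come from primary transcripts or overlapping host genes, not from the short mature miRNAs. Summed over all annotated miRNA genes they did not rise, at 2020 and 2088 CPM in Dgcr8 KO and 2093 and 3583 CPM in WT. Of 216 annotated miRNA genes tested, 29 rose and 4 fell, against 2.45% and 4.48% of all genes, and 183 were not called. With the GC correction 25 rose and 2 fell, of which 23 and 2 were called in both fits. Leaving out 1 library changed these counts: without Dgcr8 KO 1, 7 rose and 0 fell, without Dgcr8 KO 2, 10 rose and 0 fell, without WT 1, 46 rose and 15 fell, and without WT 2, 16 rose and 2 fell.

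In the miR-290 cluster, Mir292 had 192 and 202 reads in Dgcr8 KO against 24 and 17 in WT (log2 3.40 ± 0.35, adjusted p 0.00243). Mir291a had 171 and 156 reads against 24 and 19 (log2 3.06 ± 0.34, adjusted p 0.003). Neither gene's groups came near to overlapping. Mir290a, Mir291b, Mir293 and Mir294 also rose, by log2 changes of 2.404, 2.42, 2.20 and 2.06, Mir294 without a call under the GC correction (adjusted p 0.0659). Mir295 did not pass (350 and 219 reads in Dgcr8 KO, 31 and 139 in WT, adjusted p 0.0559), and its WT libraries differed most within the cluster.

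At the other miRNA genes named here as higher in Dgcr8 KO, the WT libraries held few reads or none. The miR-17-92 cluster gave 52 and 42 reads on Mir20a in Dgcr8 KO against 1 and 1 in WT, a ratio of 52.0 (exact 95% interval 14.0 to 436, counting error only). On Mir18 there were 42 and 20 reads in Dgcr8 KO against 0 and 0 in WT, at least 22.9-fold higher with the same floor for the WT sum, and on Mir19a 13 and 12 against 0 and 0, at least 9.22-fold. Mir19b-1 (100 and 66 reads against 3 and 2) and Mir92-1 (76 and 54 against 3 and 2) rose likewise. The host transcript of this cluster, Mir17hg, rose 6.59-fold, to 121 and 112 CPM in Dgcr8 KO against 14.1 and 21.3 CPM in WT (adjusted p 0.0045).

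The sister cluster on chromosome X showed the same direction. Mir106a had 45 and 29 reads in Dgcr8 KO against 1 and 1 in WT, Mir18b 59 and 47 against 3 and 3, and its host transcript Kis2 had 8.81 and 8.32 CPM against 0.677 and 0.290 CPM (log2 4.15 ± 0.47, adjusted p 0.00317). On chromosome 13, Mir24-1 had 97 and 73 reads in Dgcr8 KO against 1 and 3 in WT (log2 5.47 ± 0.52, adjusted p 0.00154), Mir27b 63 and 66 against 2 and 1, and Mir23b 37 and 19 against 0 and 0. Mir181d, on chromosome 8, had 26 and 27 reads in Dgcr8 KO against 0 and 0 in WT, at least 19.6-fold higher. Mir298 had 30 and 30 reads against 0 and 1, a ratio of 66.4 (exact 95% interval 11.5 to 2666), and Mir221 19 and 27 against 1 and 0. Of 10 primary miRNA host transcripts on the list, 5 rose and 0 fell (median log2 1.53, against -0.03 over all genes tested). The others called were Mir124a-1hg, Dleu2, which carries the miR-15a and miR-16-1 hairpins, and Mir22hg, with log2 changes of 3.30, 1.06 and 1.56, and Dleu2 was not called with the GC correction (adjusted p 0.0882). Of the 10, 2 were called without Dgcr8 KO 1, Dgcr8 KO 2 or WT 2. The 4 miRNA genes that fell were Mir1306, Mir3076, Mir692-2 and Mir6418, and neither Mir3076 nor Mir692-2 was called with the GC correction (adjusted p 0.123 and 0.105).

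**Figure D1:**
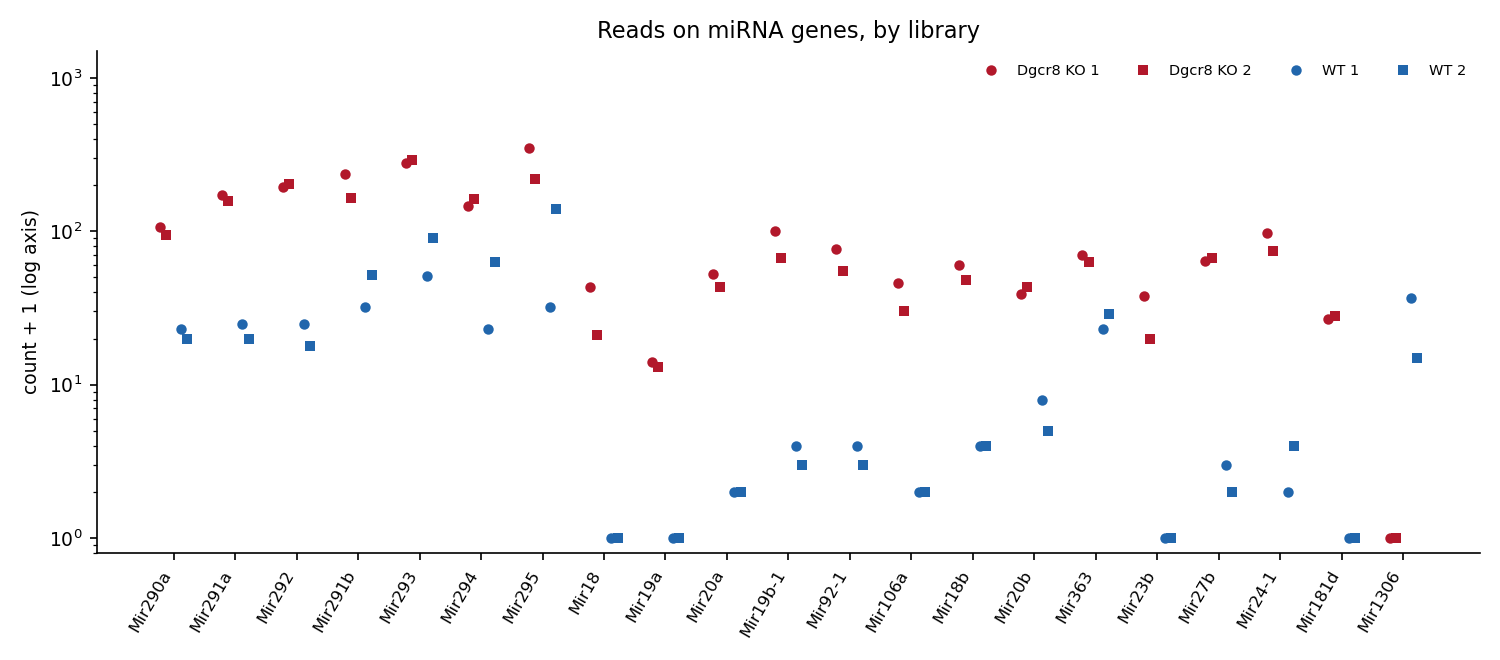
Reads on each miRNA gene plus 1 (log axis) in the 2 Dgcr8 KO libraries (red) and the 2 WT libraries (blue), circles for replicate 1 and squares for replicate 2. Every gene shown except Mir1306 was higher in both Dgcr8 KO libraries than in both WT libraries, and Mir1306 had 0 reads in Dgcr8 KO. The genes shown were picked with their values known. By CPM, both Dgcr8 KO libraries were above both WT libraries in 85 of all 216 annotated miRNA genes tested and below in 46. Over all 16388 genes tested these counts were 5024 and 5108.

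Fold changes followed the GC content of the transcript. Genes with AU-rich transcripts tended to be higher in Dgcr8 KO and genes with GC-rich transcripts lower. Across 16315 genes with an annotated transcript, Spearman's rho between the log2 fold change and the GC percent of the longest transcript was -0.444, a description across genes, which are not independent. Genes were split by GC into 10 bins of equal size. In the bin with the lowest GC (up to 41.2%) the median log2 fold change was 0.43, with 92 genes higher and 14 lower. In the bin with the highest GC (57.7% and above) it was -0.63, with 9 genes higher and 207 lower. The medians fell from each bin to the next without exception.

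The slope was also read in each library, as log2 CPM relative to the mean of the 8 libraries per 10 points of GC. It was -0.419 and -0.344 in the Dgcr8 KO libraries, against -0.022 and 0.325 in the WT libraries, a difference of -0.533. The Dgcr8 KO slopes were below those of all other libraries, and the WT slopes differed from each other by about as much as WT 1 differed from Dgcr8 KO. In each genotype the library numbered 2 had the higher slope, and the labels do not say whether a number marks a shared batch. With 2 libraries against 2, the exact two-sided permutation p was 0.333, the smallest this design allows. Against all 6 other libraries, whose slopes lay between -0.022 and 0.325, the difference was -0.509 (exact two-sided permutation p 0.0357, again the smallest possible). For single pairs, rho with GC lay between -0.294 and -0.469 for a Dgcr8 KO library against a WT library, and was -0.315 for WT 1 against WT 2, -0.380 for Ago1_2 KO 1 against Ago1_2 KO 2, and -0.151 for Dgcr8 KO 1 against Dgcr8 KO 2. A GC trend of the same order was thus present between libraries of 1 genotype. Without WT 2 the trend was -0.319, and without WT 1 it was -0.464.

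The trend held within 3 equal bins of transcript length (rho -0.413, -0.430 and -0.409, shortest to longest) and within 3 equal bins of mean CPM (-0.398, -0.484 and -0.464, lowest to highest). GC of the coding part (rho -0.413 over 13631 genes) and of the 3′ UTR (-0.412 over 13421 genes) gave similar values. Longer transcripts tended to be higher in Dgcr8 KO, with a rho of 0.285 for transcript length and 0.355 for 3′ UTR length. After each library's own smooth of level on GC was subtracted (the GC correction), rho with GC was 0.00753 by construction, and rho with length was 0.226 and with UTR length 0.223. Called genes in the lowest GC bin were then 28 higher and 36 lower, and in the highest bin 37 higher and 46 lower.

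**Figure D2:**
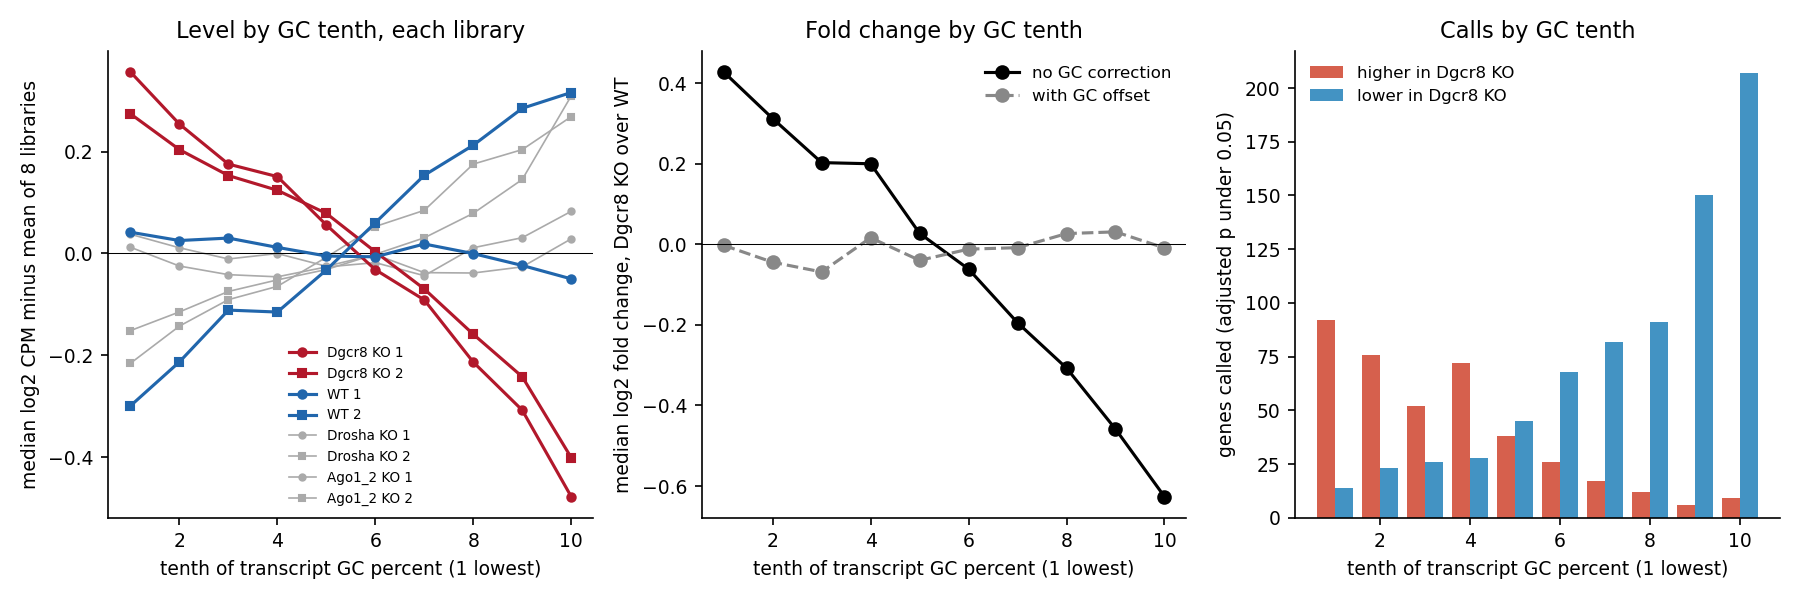
Left, median log2 CPM minus the mean of the 8 libraries by bin of transcript GC percent for each library (Dgcr8 KO red, WT blue, other mutants grey). Centre, median log2 fold change of Dgcr8 KO over WT by bin, from 0.43 to -0.63 without the GC correction (solid) and near 0 with it (dashed). Right, genes called higher (red) and lower (blue) in each bin, 92 and 14 in the lowest and 9 and 207 in the highest.

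Among the pathway lists, the ATF4 and CHOP response had the lowest median. The list counts below stand against 2.45% of all genes that rose and 4.48% that fell. With the GC correction these shares of all genes were 1.72% and 2.67%. ATF4 is a transcription factor whose protein is made when translation initiation is restrained, for instance by amino acid shortage. Its known targets supply amino acids and load tRNAs, and with CHOP (Ddit3) they also include regulators of growth and death. Of 27 list members tested, 21 fell and 0 rose (median log2 -2.09, against -0.03 over all genes). Both Dgcr8 KO libraries were below both WT libraries in 27 of 27, against 5108 of all 16388 genes. With the GC correction 19 fell, 18 of them among the 21 (median log2 -1.83). The number that fell was 3 with either Dgcr8 KO library left out, 22 with WT 1 left out and 12 with WT 2 left out. Members summed to 2177 and 2440 CPM in Dgcr8 KO and to 5295 and 5596 CPM in WT.

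Among the regulators, Ddit4, an inhibitor of mTORC1, had 11.8 and 9.40 CPM in Dgcr8 KO against 87.1 and 72.9 CPM in WT (log2 -2.91 ± 0.22, adjusted p 0.000567). Trib3, a pseudokinase that feeds back on ATF4, had 10.4 and 8.89 CPM against 70.9 and 94.0 CPM (log2 -3.09 ± 0.29, adjusted p 0.00137). Chac1, a glutathione-degrading enzyme, had 3.22 and 2.48 CPM against 59.5 and 41.3 CPM (log2 -4.14 ± 0.45, adjusted p 0.0026). The groups were far apart for all 3. Ddit3 had 6.97 and 8.26 CPM in Dgcr8 KO against 28.2 and 63.3 CPM in WT (adjusted p 0.0197). Slc7a11, the cystine transporter, had 0.686 and 0.445 CPM against 21.3 and 4.45 CPM (log2 -4.48 ± 0.79, adjusted p 0.0157), with WT libraries that differed widely. Atf4 mRNA itself missed the threshold, at 207 and 254 CPM in Dgcr8 KO and 344 and 658 CPM in WT (log2 -1.12 ± 0.31, adjusted p 0.0569), as did Asns, asparagine synthetase (log2 -0.88 ± 0.23, adjusted p 0.0511), and Atf3 (adjusted p 0.0598).

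**Figure D3:**
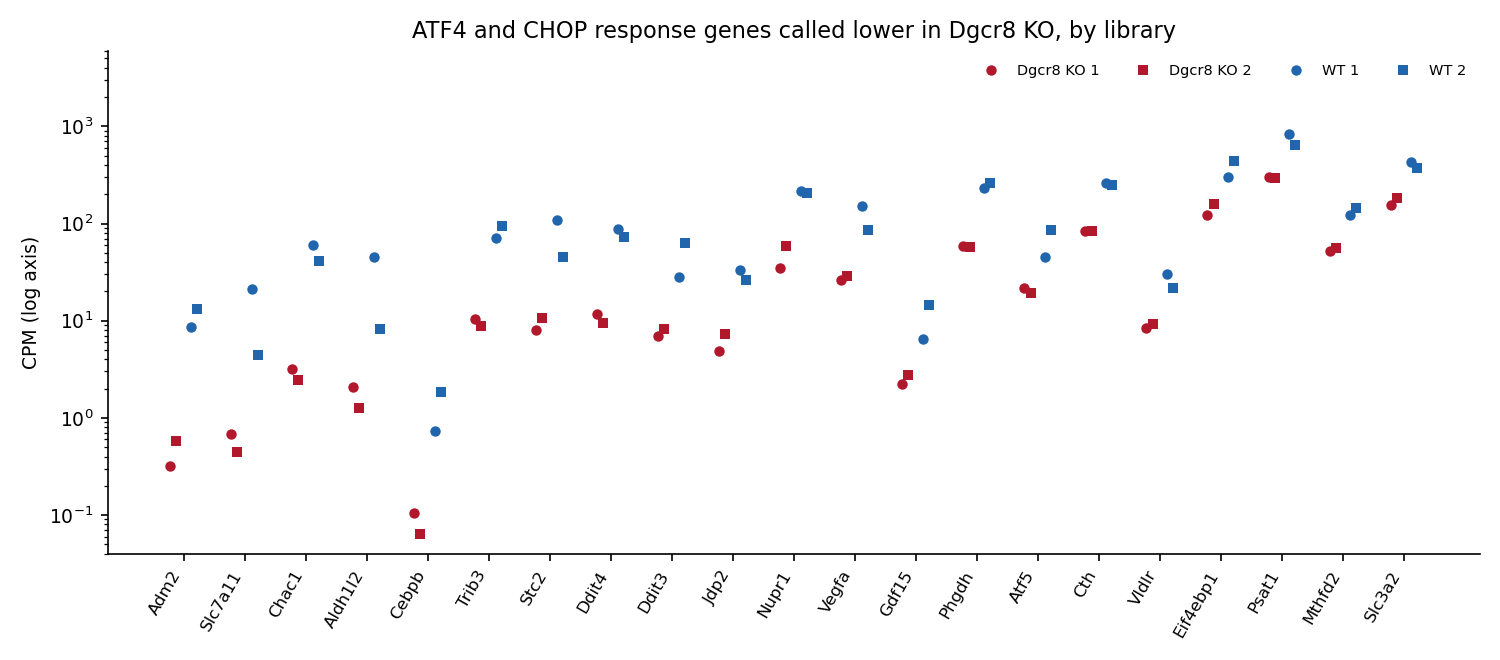
CPM (log axis) of the 21 ATF4 and CHOP response genes called lower, ordered by log2 fold change, in the 2 Dgcr8 KO libraries (red) and the 2 WT libraries (blue), circles for replicate 1 and squares for replicate 2. Every red point lies below both blue points of its gene, for Chac1 at 3.22 and 2.48 against 59.5 and 41.3 CPM.

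Promoters of this list were searched for the element TGATGNAA, which ATF4 and C/EBP dimers are known to bind, on both strands from 250 bases before to 50 after the RefSeq start. Of the 27 members, 24 had a promoter in the table and 8 of these (33.3%) held the element, against 1219 of all 27025 genes in the table (4.51%). A match is a description of letters, not a shown binding site. The list was drawn up from genes known to respond to ATF4 and CHOP, so a high share can follow from its membership. It is no result about the change in Dgcr8 KO. Atf3 and Asns, among the 8 with the element, were not called. The promoters of the 3 members with the element that fell furthest are printed on the strand of the gene (GRCm38.p6), with the element in capitals. They are Slc7a11 (chr3:50443564-50443863, minus strand), Chac1 (chr2:119350992-119351291, plus strand) and Trib3 (chr2:152344011-152344310, minus strand).
Slc7a11 promoter: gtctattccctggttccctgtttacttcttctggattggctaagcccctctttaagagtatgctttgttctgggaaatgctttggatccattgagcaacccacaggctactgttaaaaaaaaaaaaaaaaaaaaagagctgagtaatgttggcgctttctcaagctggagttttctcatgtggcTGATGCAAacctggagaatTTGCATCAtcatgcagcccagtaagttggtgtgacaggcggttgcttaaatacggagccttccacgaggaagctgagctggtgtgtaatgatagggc
Chac1 promoter: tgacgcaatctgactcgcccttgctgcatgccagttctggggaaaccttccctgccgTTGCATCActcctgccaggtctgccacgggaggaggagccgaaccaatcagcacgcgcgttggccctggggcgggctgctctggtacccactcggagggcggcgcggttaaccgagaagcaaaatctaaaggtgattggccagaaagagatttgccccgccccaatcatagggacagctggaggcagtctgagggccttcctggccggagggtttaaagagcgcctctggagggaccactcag
Trib3 promoter: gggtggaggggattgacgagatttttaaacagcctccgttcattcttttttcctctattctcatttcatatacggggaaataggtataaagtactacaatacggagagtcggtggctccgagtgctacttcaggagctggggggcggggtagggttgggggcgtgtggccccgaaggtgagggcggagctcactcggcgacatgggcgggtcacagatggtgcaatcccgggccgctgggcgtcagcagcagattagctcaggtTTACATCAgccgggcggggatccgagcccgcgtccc
The Slc7a11 window held the element in both orientations, starting 66 and 47 bases before the transcript start. In Chac1 it began 193 bases before the start, and in Trib3 at base 15 of the transcript.

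Enzymes and carriers for amino acids also fell in part, as did tRNA synthetases. This list shares genes such as Phgdh, Psat1 and Slc7a11 with that of ATF4. Of 33 genes of amino acid synthesis and transport, 15 fell and 1 rose (median log2 -0.85). With the GC correction 14 fell, 13 of them among the 15. With Dgcr8 KO 1, Dgcr8 KO 2, WT 1 or WT 2 left out, in this order, 1, 2, 17 and 12 fell. The serine pathway was lower at each of its 3 steps. Phgdh had 58.7 and 57.3 CPM in Dgcr8 KO against 232 and 261 CPM in WT (log2 -2.09 ± 0.25, adjusted p 0.00403). Psat1 had 298 and 295 CPM against 837 and 644 CPM (log2 -1.32 ± 0.20, adjusted p 0.00936), and Psph 20.3 and 19.6 CPM against 68.9 and 74.2 CPM (log2 -1.84 ± 0.19, adjusted p 0.00243). Gpt2, the mitochondrial alanine transaminase, had 50.3 and 48.5 CPM against 305 and 188 CPM. The groups were apart in each of these genes, as they were in all 1136 genes called. Proline synthesis (Pycr1 and Aldh18a1, log2 -1.76 and -1.34), mitochondrial one-carbon enzymes (Shmt2 and Mthfd2, log2 -1.44 and -1.32) and the carriers Slc1a5, Slc3a2, Slc6a9 and Slc7a5 fell as well. Glul, glutamine synthetase, was the 1 member that rose, with 200 and 238 CPM in Dgcr8 KO against 109 and 86.2 CPM in WT (log2 1.16 ± 0.24, adjusted p 0.026). Of 23 aminoacyl-tRNA synthetases and partners, 8 fell and 0 rose (median log2 -0.55), namely Sars, Gars, Cars, Yars, Mars, Aars, Vars and Nars, by log2 changes between -1.21 and -0.83. With the GC correction 5 of the 23 fell, 3 of them among these 8. The 8 calls made without the correction were lost when either Dgcr8 KO library was left out. In a fit of the 4 compared libraries alone, 2 of the 23 fell.

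Carbon metabolism was lower in part. Of 26 genes of glucose uptake and glycolysis 9 fell and 0 rose (median log2 -0.75), but 2 fell with the GC correction, Aldoc and Slc16a3. Aldoc had 9.76 and 14.0 CPM in Dgcr8 KO against 42.7 and 48.7 CPM in WT (log2 -1.94 ± 0.27, adjusted p 0.00649). Abundant members that fell before the correction were Aldoa (823 and 953 CPM against 1475 and 2313 CPM), Eno1 (791 and 810 against 1222 and 1851) and the lactate dehydrogenase Ldha (523 and 540 against 877 and 1213). Their adjusted p with the correction was 0.149, 0.264 and 0.0534. Of the 26, 0 fell without Dgcr8 KO 1, and without Dgcr8 KO 2, WT 1 or WT 2, 1, 15 and 4 did. Hypoxia targets, which overlap with this list and that of ATF4, were mixed: 7 of 25 fell, among them Bnip3 (log2 -1.34) and Vegfa (log2 -2.11), and 2 rose. The risers were the histone demethylase Kdm3a (450 and 440 CPM in Dgcr8 KO, 210 and 159 CPM in WT, log2 1.27 ± 0.22, adjusted p 0.0148) and the adenylate kinase Ak4 (347 and 308 CPM, 199 and 140 CPM, adjusted p 0.0415, and 0.0548 with the GC correction). Without Dgcr8 KO 1 or 2, 1 of the 25 fell, and without WT 1, 10.

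The respiratory chain and the ribosomes had medians below that of all genes, but few of their genes passed the test. Of respiratory chain genes 15.6% fell, of mitochondrial ribosomal protein genes 5.13% and of cytosolic ones 2.41%, against 4.48% of all genes. Of 77 nuclear-encoded respiratory chain genes 12 fell and 0 had a log2 change above 0 (median -0.69). With the GC correction 8 fell, 7 of them among the 12. Ndufv2 of complex I had 63.7 and 71.7 CPM in Dgcr8 KO against 149 and 227 CPM in WT (log2 -1.48 ± 0.23, adjusted p 0.0096), and Uqcrq of complex III had 24.5 and 18.7 CPM against 60.8 and 113 CPM (adjusted p 0.0117). The list summed to 9906 and 10345 CPM in Dgcr8 KO, 11942 CPM in WT 1 and 18800 CPM in WT 2. WT 2 was thus much the higher of the WT libraries. Without WT 1, 59 of the 77 fell, without WT 2, 3, and without either Dgcr8 KO library, 0.

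Cytosolic ribosomal protein genes showed this split most plainly. They summed to 69550 and 78441 CPM in Dgcr8 KO, 80110 CPM in WT 1 and 148166 CPM in WT 2. Only Rpl36 and Rplp1 of 83 fell, neither with the GC correction (adjusted p 0.0637 and 0.0744), with a median log2 of -0.64 over the list and 2 members above 0. Without WT 1, 67 of the 83 fell, and without WT 2, 0 fell and 1 rose. Of 78 mitochondrial ribosomal protein genes 4 fell (median log2 -0.48), 37 without WT 1 and 0 without WT 2. The mitochondrially encoded mt-Co3, a cytochrome oxidase subunit, had 898 and 1171 CPM in Dgcr8 KO against 2189 and 2435 CPM in WT (log2 -1.16 ± 0.29, adjusted p 0.0419). It was the 1 of 13 mitochondrially encoded genes tested that fell, and 0 rose.

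Some genes of cell contacts, the contractile cytoskeleton and antigen presentation fell. Of 28 adherens and tight junction genes 8 fell and 0 rose (6 with the GC correction), and without Dgcr8 KO 1 or 2, 0 fell. Cldn7, a claudin of tight junctions, had 0.422 and 0.699 CPM in Dgcr8 KO against 17.0 and 7.98 CPM in WT (log2 -4.48 ± 0.81, adjusted p 0.0168). Epcam, an epithelial adhesion molecule, had 16.5 and 19.9 CPM against 64.1 and 46.3 CPM (log2 -1.60 ± 0.24, adjusted p 0.00936). The keratins Krt7 (1.58 and 1.14 CPM against 13.5 and 11.3 CPM) and Krt18 (1.32 and 2.41 CPM against 10.6 and 10.98 CPM) fell too. Both are also trophectoderm markers and lie on chromosome 15, whose median was below that of all genes, as described below. The other genes called were Tjp3, Cdh3, Cldn6 and Cldn3. Of 28 actin and contractile genes, 9 fell and 0 rose (7 with the correction, 0 without Dgcr8 KO 1 or 2). Myh9, the heavy chain of nonmuscle myosin, had 39.9 and 45.3 CPM in Dgcr8 KO against 213 and 129 CPM in WT (log2 -2.004 ± 0.26, adjusted p 0.00554). Its regulatory light chain gene Myl12a had 72.6 and 84.4 CPM against 174 and 222 CPM, and the lamin gene Lmna, Tpm1, Tpm2, Anxa2, Cnn2, S100a10 and Tagln2 also fell.

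Of 20 genes of MHC class I and antigen presentation, 5 fell and 0 rose, and 2 fell with the GC correction (0 without Dgcr8 KO 1 or 2). H2-K1, a classical class I heavy chain, had 2.27 and 1.65 CPM in Dgcr8 KO against 15.7 and 11.03 CPM in WT (log2 -2.76 ± 0.34, adjusted p 0.00461). H2-Q4, H2-T22, H2-Q7 and Tapbp, the tapasin gene, were the others, and all 5 lie on chromosome 17. H2 genes are near-identical in places, and reads could be split between them. Of 27 oxidative stress genes 5 fell and 0 rose, and 3 fell with the GC correction. The 5 were Slc7a11, the metallothioneins Mt1 and Mt2, the heme oxygenase Hmox1 and Gpx1. Mt2 had 153 and 162 CPM in Dgcr8 KO against 484 and 928 CPM in WT (log2 -2.16 ± 0.33, adjusted p 0.0096). Of these 5, 0 fell without Dgcr8 KO 1 or 2, and without WT 1 or WT 2, 11 and 2 of the 27 did. Sparc, a secreted matricellular protein, led the 5 of 33 matricellular and basement membrane genes that fell, with 77.4 and 88.6 CPM in Dgcr8 KO against 246 and 225 CPM in WT (log2 -1.51 ± 0.18, adjusted p 0.00415). After the GC correction 2 of the 33 fell and the median log2 was -0.03, against -0.28 before it. Without Dgcr8 KO 1 or 2, 0 of the 33 fell, and without WT 1, 8.

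**Figure D4:**
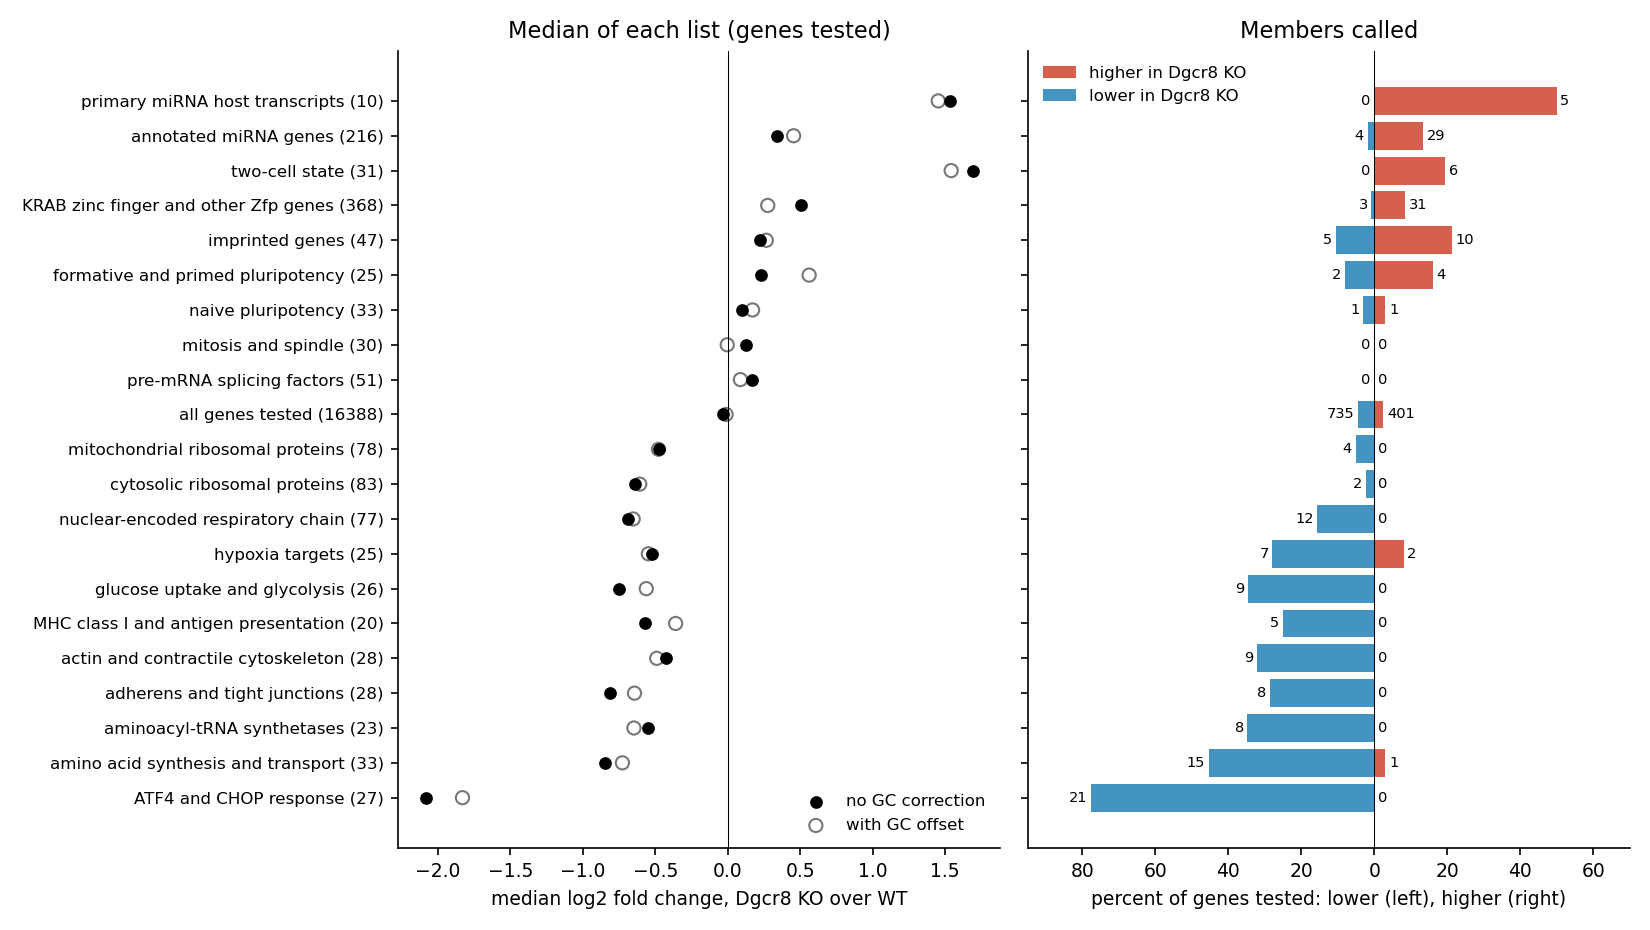
Left, median log2 fold change of Dgcr8 KO over WT of each gene list (number of genes tested in brackets), without (filled) and with (open) the GC correction. Right, percent of each list called higher (red) or lower (blue), with the number of genes beside each bar; the ATF4 and CHOP response had 21 lower and 0 higher, and all genes tested had 735 lower and 401 higher.

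Imprinted genes, which are expressed from 1 parental copy, held some of the largest changes in both directions. Of 47 tested, 10 rose and 5 fell. With the GC correction 9 rose and 5 fell, of which 9 and 4 were called in both fits. Both the rises and the falls depended on single libraries. Fewer of each were called without Dgcr8 KO 1, Dgcr8 KO 2 or WT 2, and more of each without WT 1. Plagl1, a zinc finger regulator of growth, had 321 and 231 CPM in Dgcr8 KO against 14.7 and 16.3 CPM in WT, 17.8-fold higher (log2 4.16 ± 0.24, adjusted p 0.000116). Peg10, a gene derived from a retrotransposon, had 156 and 163 CPM against 12.5 and 4.64 CPM (log2 4.22 ± 0.45, adjusted p 0.00258). Kcnq1ot1, the long noncoding RNA that silences its neighbours on the paternal copy, had 34.5 and 30.1 CPM against 5.25 and 3.58 CPM (log2 2.87 ± 0.30, adjusted p 0.00257). The groups did not come near each other in these 3 genes.

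The noncoding Nespas at the Gnas locus had 13.9 and 10.4 CPM in Dgcr8 KO against 0.959 and 0.726 CPM in WT. Gnas itself, the gene of the stimulatory G protein alpha subunit, fell, with 57.2 and 73.8 CPM against 208 and 206 CPM (log2 -1.66 ± 0.21, adjusted p 0.00504). Known maternally expressed neighbours of Kcnq1ot1 fell as well: Phlda2 had 0 and 1 reads in Dgcr8 KO against 83 and 232 in WT, 285-fold lower (exact 95% interval 50.7 to 11277), and Slc22a18 had 1.06 and 1.14 CPM against 5.64 and 11.1 CPM. Peg3, Impact, Mest, Zrsr1, Snurf and Snrpn, all known as paternally expressed, rose by log2 changes between 0.88 and 1.99. Snurf and Snrpn share a transcript, and reads could be split between them. Grb10 and Trappc9 fell.

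Of 33 pluripotency genes of the naive state 1 rose and 1 fell, Rex2 and the STAT3 feedback gene Socs3, a share near the 6.93% of all genes called, and neither was called with the GC correction (adjusted p 0.0669 and 0.135). Nanog stood at 793 and 849 CPM in Dgcr8 KO and at 722 and 652 CPM in WT (adjusted p 0.411), Sox2 at 239 and 274 CPM and at 261 and 284 CPM, and Esrrb at 807 and 851 CPM and at 862 and 708 CPM. Pou5f1 was at 723 and 780 CPM in Dgcr8 KO and at 882 and 1490 CPM in WT (log2 -0.66 ± 0.26, adjusted p 0.133). Of 25 genes of the formative and primed states, 4 rose and 2 fell. Zic2, a zinc finger factor, had 54.4 and 57.1 CPM in Dgcr8 KO against 11.1 and 15.0 CPM in WT (log2 2.09 ± 0.26, adjusted p 0.00461), and its chromosome 14 neighbour Zic5 35.8 and 32.6 CPM against 9.14 and 10.01 CPM. Lef1, a transcription factor of the Wnt pathway, had 26.9 and 34.9 CPM against 4.29 and 7.40 CPM (adjusted p 0.0345, and 0.0586 with the GC correction), and Sox11 rose too. Utf1 and Cldn6 fell. Zic2 and Zic5 were the 2 of the 25 that rose with the GC correction, and 0 fell. Leaving out Dgcr8 KO 1, Dgcr8 KO 2 or WT 2 left 1 of the 25 higher. Among 24 Wnt targets Lef1 and Axin2 rose, Axin2 with 116 and 126 CPM in Dgcr8 KO against 61.0 and 64.9 CPM in WT (log2 0.94 ± 0.22, adjusted p 0.036), and neither was called without Dgcr8 KO 1 or 2.

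Of 30 Nodal and TGF-beta signalling genes 4 rose and 1 fell, but with the GC correction 1 rose and 3 fell, and with DESeq2's Wald test 5 rose and 6 fell. Tgfbr3, the coreceptor betaglycan, had 59.7 and 47.0 CPM in Dgcr8 KO against 9.59 and 12.6 CPM in WT (log2 2.27 ± 0.24, adjusted p 0.00257). The type I receptor Tgfbr1, the activin receptor Acvr2a and Smad2 rose by log2 changes of 1.30, 1.04 and 0.93, none of them called with the GC correction (adjusted p 0.0718, 0.105 and 0.082). Inhbe, an inhibin beta chain, fell, with 2 and 2 reads in Dgcr8 KO against 167 and 66 in WT. Without Dgcr8 KO 1, Dgcr8 KO 2 or WT 2, 1 of the 30 rose.

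Genes of the 2-cell stage, which a small share of embryonic stem cells switch on transiently, rose in part, at low levels. Of 31 tested 6 rose and 0 fell (median log2 1.69), with 3 rising after the GC correction and 1 by limma-voom. Both Dgcr8 KO libraries were above both WT libraries in 22 of 31, against 5024 of all 16388 genes. Zscan4f had 7.81 and 8.70 CPM in Dgcr8 KO against 1.81 and 1.5 CPM in WT (log2 2.32 ± 0.42, adjusted p 0.0168), and Tmem92 3.48 and 4.07 CPM against 0.564 and 0.580 CPM. Zscan4b, Zscan4d, Usp17lc and BC080695 were the others. Zscan4 and Usp17l genes are near-identical copies among which reads could be split. Of the 31, 0 were called without Dgcr8 KO 1, Dgcr8 KO 2 or WT 2.

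Zinc finger genes named Zfp, many of them KRAB repressors of retroelements, had a median above that of all genes. Of 368 tested 31 rose and 3 fell, with a median log2 of 0.51 and with 288 above 0. Their transcripts are AU-rich, with a median GC of 43.6% against 49.7% over all genes tested. With the GC correction 7 rose and 3 fell, of which 4 and 1 were called in both fits, and the median was 0.28. Without WT 1, 134 rose, without WT 2, 2, and without Dgcr8 KO 1 or 2, 0. Abundant genes called higher included Zfp961 (208 and 230 CPM in Dgcr8 KO, 133 and 127 CPM in WT) and Zfp985 (235 and 232 CPM, 138 and 133 CPM), neither with the correction (adjusted p 0.242 and 0.297).

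Of 51 pre-mRNA splicing genes, 30 of mitosis, 35 of ribosome biogenesis and 38 of the proteasome, edgeR called 0 in either direction. At an unadjusted p under 0.05 there were 14, 4, 8 and 11 in this order, against 4916 of all 16388 genes, DESeq2 called 4, 2, 3 and 5, and limma-voom called 0. With WT 1 left out, 7 splicing genes rose and 6 fell, and 12 proteasome genes fell. The counts for DNA replication, where 2 of 41 fell (Pold1 and Gins2), G1 to S control, where 1 of 29 fell (Cdkn2a), and DNA repair, where 2 of 48 fell, were near the 4.48% of all genes that fell. None of Pold1, Gins2 and Cdkn2a was called with the GC correction (adjusted p 0.233, 0.0807 and 0.217). Of 27 silencing effectors and miRNA decay factors Lin28a and Cnot6l rose and Mov10 fell, none of the 3 called with the GC correction or without either Dgcr8 KO library. Lin28a, an RNA-binding protein that blocks let-7 processing and is itself a known let-7 target, had 64.5 and 66.0 CPM in Dgcr8 KO against 19.5 and 26.1 CPM in WT (log2 1.51 ± 0.39, adjusted p 0.0481, and 0.0548 with the GC correction). Of 23 reported targets of the miR-290 and miR-302 family, 1 was called, Tgfbr1. The log2 change was above 0 in 18 of these targets (median 0.41), against 7882 of all 16388 genes. With the GC correction 0 of these targets were called and their median was 0.28. Lats2, a Hippo kinase often cited among them, stood at 7.60 and 6.99 CPM in Dgcr8 KO and at 5.42 and 3.24 CPM in WT (adjusted p 0.228).

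Genes were then grouped by sites for these miRNAs, as 7 bases of the 3′ UTR complementary to the seed. Of 13421 protein-coding genes with a 3′ UTR, 2440 held AGCACTT, the site of the miR-290 and miR-302 seed. Their median log2 fold change was 0.19, against -0.09 for the 10981 genes without it, and it was 0.16 with 1 site and 0.32 with 2 or more. Of the genes with a site 103 rose and 67 fell, and of those without 214 rose and 623 fell. With the GC correction 53 rose and 58 fell with a site and 161 and 350 without, and the medians were 0.12 and -0.04. The other abundant families gave the same order: 0.24 against -0.09 for the miR-17 site GCACTTT, 0.23 against -0.08 for the miR-19 site TTTGCAC, and 0.25 against -0.06 for the miR-92 site GTGCAAT. The sites of miR-15 and miR-16 (TGCTGCT, 0.09 against -0.09) and of let-7 (CTACCTC, 0.06 against -0.05) gave smaller differences. Some of these sites overlap in sequence, and a UTR can hold several.

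UTRs with sites are longer, and length and GC moved with the fold change in these data. Within 5 equal bins of UTR GC, genes with a site had the higher median in 5 of 5 for each of the 6 families. Within 5 equal bins of UTR length the median was higher with a site in 5 of 5 for the miR-290, miR-17, miR-19 and miR-92 families, in 1 of 5 for miR-15 and miR-16, and in 0 of 5 for let-7. The differences in these length bins were 0.05 to 0.16 for the miR-290 site and -0.11 to -0.01 for the let-7 site. With the GC correction they ran from -0.003 to 0.25 for the miR-290 site and from -0.02 to 0.18 for the let-7 site. The median was higher with a site in 4 of 5 bins for both. Both largest differences came from the bin of shortest UTRs, with only 59 and 60 genes with a site. In the bin of longest UTRs, with 1130 and 679 such genes, the corrected medians were close. They were 0.18 with the miR-290 site and 0.14 without, and 0.16 and 0.15 for let-7. Genes with sites are not replicates, and no test was made of these medians.

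Whole chromosomes differed between the libraries. On chromosome 15 the 613 genes tested had a median log2 fold change of -0.42, with 63 lower and 7 higher (10.3% lower, against 4.48% of all genes). The level relative to the mean of the 8 libraries was -0.37 and -0.33 in Dgcr8 KO and -0.16 and 0.25 in WT 1 and WT 2. Dgcr8 KO was lowest, but WT 1 and WT 2 stood further apart from each other than WT 1 stood from Dgcr8 KO. With the GC correction the median was -0.25 and 38 genes fell. On chromosome 17 the median was -0.36 over 789 genes, with 74 lower and 11 higher, and -0.15 and 58 lower with the correction. The Dgcr8 KO libraries were there at -0.24 and -0.18 and the WT libraries at 0.05 and 0.20. Chromosome 1 was set apart in WT 1 alone, at 0.33, against 0.05 and 0.01 in the Dgcr8 KO libraries and -0.10 in WT 2. Chromosomes X, 18 and 13 had the highest medians before the correction, at 0.23, 0.21 and 0.18, and stood at 0.07, 0.12 and 0.04 with it. Chromosome and pathway cannot be told apart where a list lies on 1 chromosome, as the H2 genes of chromosome 17 do.

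**Figure D5:**
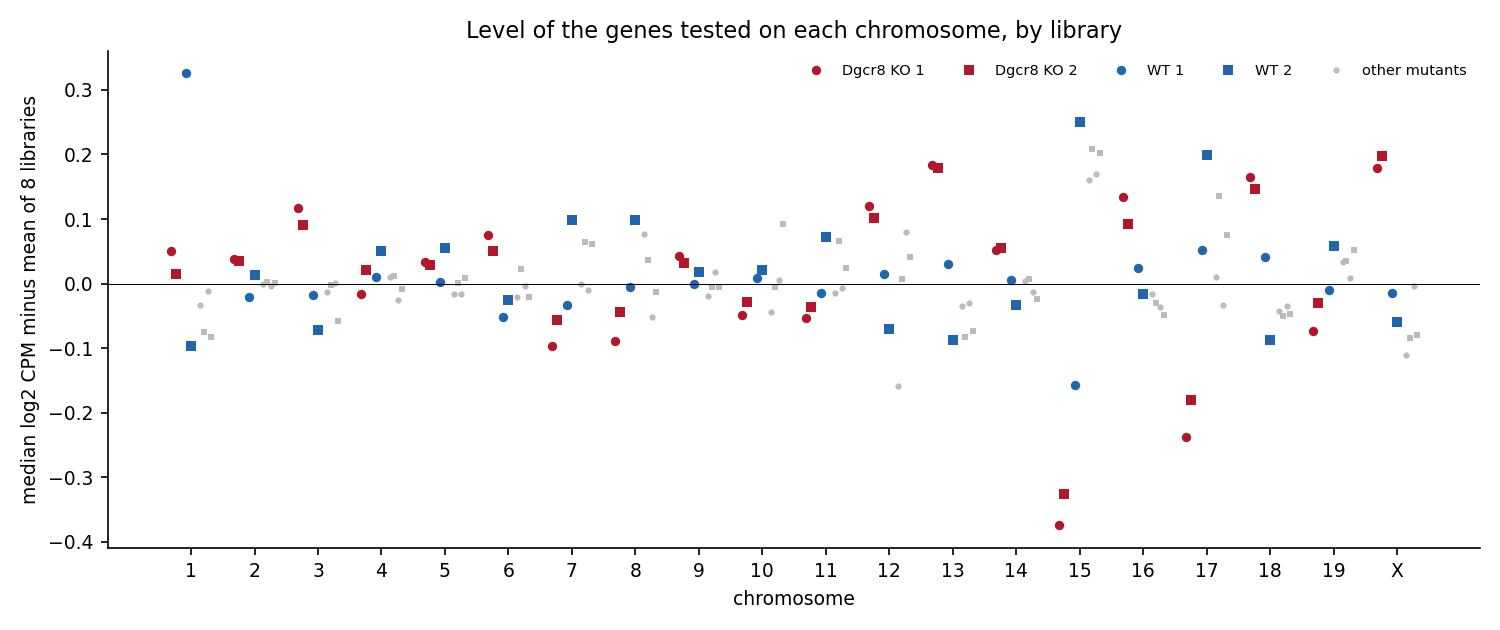
Median over the genes tested on each chromosome of log2 CPM minus the mean of the 8 libraries, for Dgcr8 KO (red), WT (blue; circle WT 1, square WT 2) and the other mutants (grey). Chromosome 15 was at -0.37 and -0.33 in Dgcr8 KO, and WT 1 was at 0.33 on chromosome 1.

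Y-linked genes had almost no reads in the Dgcr8 KO libraries. E14 is a male line, and the 5 Y-linked genes of the list, Ddx3y, Uty, Eif2s3y, Uba1y and Zfy1, together had 0 and 1 reads in Dgcr8 KO against 1767 and 3567 in WT. All 5 fell, 3 of them without Dgcr8 KO 1. Eif2s3y, a translation initiation factor subunit, had 0 and 0 reads against 770 and 2196, at least 893-fold lower, and Ddx3y, an RNA helicase, 0 and 0 against 504 and 703, at least 364-fold lower. The other mutant libraries had between 3349 and 7812 reads on these genes.

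Outside these groups, the largest rises among genes of at least 10 CPM in 1 group included Btla, an immune inhibitory receptor, with 26.6 and 23.5 CPM in Dgcr8 KO against 0.959 and 1.45 CPM in WT (20.6-fold, log2 4.36 ± 0.78, adjusted p 0.0166). Mep1b, a meprin protease subunit, had 53.5 and 60.04 CPM against 3.10 and 4.74 CPM (14.4-fold, adjusted p 0.000849). Both genes were under 5 CPM in both WT libraries. The giant muscle protein gene Ttn had 147 and 103 CPM against 21.6 and 11.9 CPM, and Arhgef26, an exchange factor for small GTPases, 21.9 and 20.97 CPM against 2.77 and 2.81 CPM.

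The largest falls besides those named included P2rx3, an ATP-gated channel, with 0.580 and 0.254 CPM in Dgcr8 KO against 47.7 and 8.61 CPM in WT (log2 -6.02 ± 0.86, adjusted p 0.00786), Adssl1, a muscle adenylosuccinate synthase (0.264 and 0.445 CPM against 10.6 and 18.04 CPM), Ubap1l (0.528 and 0.762 CPM against 21.7 and 12.96 CPM) and Adm2, an adrenomedullin peptide hormone that is also on the ATF4 list. The homeobox gene Rhox5 had 2.96 and 3.94 CPM in Dgcr8 KO against 39.3 and 113 CPM in WT (log2 -4.47 ± 0.87, adjusted p 0.0213). WT libraries differed by more than 2-fold in P2rx3 and Rhox5. Among abundant genes, Eif5, a translation initiation factor, rose to 492 and 458 CPM in Dgcr8 KO against 220 and 205 CPM in WT (log2 1.16 ± 0.18, adjusted p 0.0108). Mapk1ip1l, BC005537 and Dlgap5 rose by log2 changes between 0.74 and 1.08, none of them called with the GC correction (adjusted p 0.0523, 0.0748 and 0.0578).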

How the data were processed

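Polyadenylated RNA of 8 libraries, 2 per genotype, was sequenced from a reverse-stranded TruSeq preparation, per the labels' protocols. The authors deposited whole-number read counts per gene, and STAR 2.4.2a and GRCm38 (mm10) are named in the submitters' processing notes. Nothing in the sources used here names the counting tool, its use of strand or its annotation (not given), so overlapping and antisense genes cannot be told apart. Library totals ran from 13229771 to 26333907 counts, which limits precision for genes with few reads, and intervals cover counting error only.

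The counts were fitted with edgeR 4.0.16 (R 4.3.3) on all 8 libraries with 1 mean per genotype, filterByExpr, TMM scaling and the robust quasi-likelihood test, with Benjamini-Hochberg adjustment and a threshold of 0.05. The GC correction subtracted a spline (5 degrees of freedom) of each library's level on the GC of the longest GENCODE M21 transcript. Of 47643 gene IDs 47224 matched that annotation. Alternatives used DESeq2 1.42.0, limma 3.58.1, other scalings and filters, a replicate block and each library left out. The labels do not say what a shared replicate number stands for, so the fit had no replicate block. Tested on simulated data of 15995 genes, the fit recovered 26% of 2-fold and 92% of 4-fold changes with 8 false calls. Changes were planted only in genes of higher mean count. Genes were drawn independently, without the shifts shared across a library that these data hold. The simulated rates therefore do not cover genes with few reads or false calls from such shifts.

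The genes compared and the lists were chosen with earlier results of these data known. Named genes were the 10 largest changes each way among called genes of at least 10 CPM in 1 group, the 10 of highest CPM each way, up to 4 called members per list and direction by p, and the markers. Further list members and miRNA genes of the plotted clusters were named after their values were seen.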

Additional observations from a re-analysis of the deposited data

How the results depend on the processing

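Against 1136 genes called, DESeq2's Wald test called 2282, no filter on low counts 3241, the 4 compared libraries alone 723, the GC correction 720 and a test against a 2-fold limit 100. With the replicate block 2795 were called, 1264 higher and 1531 lower, and 0 of the 188 named genes with a call lost it. The deviations of same-numbered libraries correlated at 0.154, over only 2 numbers, and the GC slope was higher in the library numbered 2 in all 4 genotypes, but the labels do not say whether a number marks a shared batch. Leaving out 1 library gave 40 to 4245 calls. Scaling by library size alone called 1080, 43.7% of them higher against 35.3%, and moved the median of all genes to 0.06. The GC trend of -0.444 was -0.318 with no filter, -0.464 to -0.319 with 1 library left out, 0.00753 with the GC correction and 0.00463 with the GC correction and replicate block, both of which remove it by construction. For the other changes the cause was not tested. Of the 188 named genes called, 79 lost the call with the GC correction, 166 without Dgcr8 KO 1 and 160 without Dgcr8 KO 2, and 0 reversed under any alternative run. With 2 libraries per genotype, changes near 2-fold are mostly below what these counts can call.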
